A study of Mus musculus with 4 samples.

Results

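Arg1-positive tumor macrophages are cells that carry macrophage transcripts together with Arg1, the gene of arginase 1. They were picked from single-cell RNA data on immune cells of mouse brain, and numbered 226 of 8694 cell barcodes. A barcode was taken from a tumor library if it had at least 200 genes, at most 10% mitochondrial unique molecular identifiers (UMIs, counted transcript molecules), at least 1 UMI of Csf1r, at least 3 UMIs of Ms4a7, Ms4a6c and Tgfbi together, at most 1 UMI of the microglia genes Tmem119, P2ry12, Gpr34, Sparc and Sall1, 0 UMIs of Cd3d, Cd3e and Cd3g, at least 2 UMIs of C1qa, C1qb and C1qc and at least 2 UMIs of Arg1. Without the Arg1 clause the rule held 524 cells of the 3 tumor libraries, called C1q macrophages here. Of these, 263 had 0 Arg1 UMIs and 35 had 1.

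The study profiled immune cells of healthy brain and of brains carrying glioma-005, a mouse glioblastoma cell line placed in the hippocampus of C57BL/6J mice aged 8 to 12 weeks. From day 7 the tumor-bearing mice received, into the peritoneum, rat IgG2a isotype antibody (clone LTF-2; the IgG library), an antibody to CTLA-4 (Syrian hamster clone 9H10; the anti-CTLA-4 library), or anti-CTLA-4 with the CD4-depleting antibody GK1.5 (the depletion library). The tumor groups were collected at day 35 after PBS perfusion, as 1 library of 3 pooled tumors each, with sorted microglia, CD11b myeloid cells, T cells and remaining immune cells mixed at equal ratios before 10x Genomics 3′ profiling. With 1 library per group there is no replicate, so no p-value or standard error is given, and every interval below covers the counting of UMIs or cells only. Differences between mice, tumors, sorting and library preparation cannot be told apart from those of treatment.

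As background, arginase 1 splits arginine into ornithine and urea, and so draws on the same substrate as the nitric oxide synthase encoded by Nos2. Arg1 is switched on in macrophages by type 2 cytokines, hypoxia, lactate and the uptake of dying cells, and Arg1-high macrophages of tumors are known for matrix remodelling, blood vessel growth and local depletion of arginine. In glioma such cells are mostly derived from blood monocytes that enter the tumor, in contrast to microglia, which settle the brain in the embryo.

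All 15 macrophage markers were detected in the members of each tumor library. Summed T cell markers came to 2.03, 9.42 and 5.25 CPM (UMIs of a gene summed over the cells of a class and scaled to a class total of 1000000 UMIs) in the IgG, anti-CTLA-4 and depletion libraries, and Cd3d, Cd3e and Cd3g were at 0 by the rule. Neural progenitor markers of glioma type came to 0, 1.18 and 1.75 CPM. Microglia markers, which include the microglia genes capped by the rule, summed to 741, 583 and 653 CPM, with 9, 10 and 9 of 12 detected. In C1q macrophages without Arg1 the microglia markers summed to 858, 565 and 686 CPM. Summed monocyte markers were at 6641, 8741 and 8448 CPM with all 10 detected, and at 9253, 10932 and 7877 CPM in C1q macrophages without Arg1. Border macrophage markers summed to 511, 217 and 221 CPM in the members, with 5, 6 and 6 of 10 detected and Lyve1, Folr2 and Cd209f at 0 in each library, and to 317, 204 and 146 CPM in C1q macrophages without Arg1. Neutrophil markers summed to 353, 524 and 2583 CPM in the members, with Camp at 0 in each library and Ly6g, Ngp and Ltf at 0 outside depletion, and to 332, 915 and 4804 CPM in C1q macrophages without Arg1.

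By library the members numbered 45 for IgG, 62 for anti-CTLA-4 and 119 in the depletion library, and none came from healthy brain, where the rule without Arg1 found 12 cells. Between libraries 9 barcodes were shared, 6 of them by anti-CTLA-4 and depletion, and none was a member. The rule's own genes Ms4a7 and Tgfbi stood at 201, 104 and 80.5 CPM and at 2287, 1833 and 1641 CPM in members, above the 95.8, 60.5 and 57.1 CPM and the 1202, 883 and 1185 CPM of cells without Arg1. Members were deeply read, with a median of 10058 UMIs in IgG, 12818 in anti-CTLA-4 and 9035 in depletion. Cells without Arg1 were shallower in each library, with medians of 9384, 9870 and 8343 UMIs. The whole libraries held 1484, 1874 and 3916 barcodes in the same order.

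Arg1-positive cells made up between 40.8% and 48.8% of C1q macrophages in the tumor libraries. They were 42.9% of 105 cells for IgG (exact Clopper-Pearson 95% interval 33.2 to 52.9), 48.8% of 127 for anti-CTLA-4 (39.9 to 57.8) and 40.8% of 292 in the depletion library (35.1 to 46.6). The intervals overlapped between all 3 libraries. When each cell was thinned to 2000 UMIs, which left out 0, 2 and 3 shallower cells, the share with at least 1 Arg1 UMI was 40%, 42.4% and 35.3%, and the share with at least 2 was 35.2%, 29.6% and 27.0%. In healthy brain 0 of 12 cells had an Arg1 UMI, which by a limit of 3 counts allows up to 25% of cells with a UMI (exact upper bound 26.5%).

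The median was 22 Arg1 UMIs per cell for IgG, 18.5 for anti-CTLA-4 and 10 in the depletion library, with ranges of 3 to 191, 2 to 79 and 2 to 83. Summed over members, Arg1 stood at 3028 CPM for IgG, 1954 for anti-CTLA-4 and 1686 in the depletion library. Since Arg1 chose the members, these levels are a description only. At the threshold, 5, 7 and 23 C1q macrophages held exactly 1 Arg1 UMI and fell outside the rule. The gene lies on chromosome 10 (24915221 to 24927484, minus strand, mm10, GENCODE vM21), and 3′ reads report the gene as a whole, not an isoform.

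**Figure D1:**
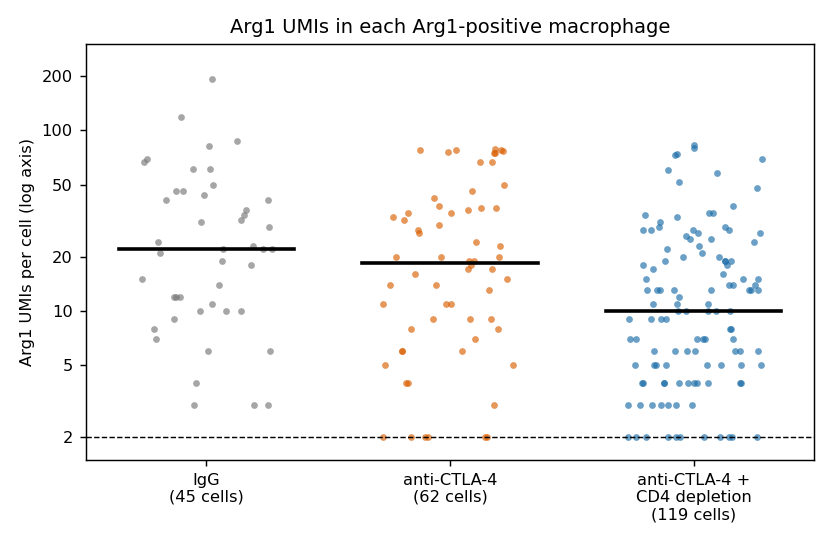
Arg1 UMIs in each member (points, log axis) by library, with the median as a bar and the rule's minimum of 2 as a dashed line. The medians are 22, 18.5 and 10 UMIs, and the 3 libraries overlap over most of their range.

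Among the named classes Arg1 was most frequent in C1q macrophages and then in monocytes. At least 2 Arg1 UMIs were found in 13.9%, 23.4% and 23.5% of Ly6c2 monocytes without C1q transcripts (IgG, anti-CTLA-4 and depletion). The share was 2.89%, 0% and 1.33% in microglia, 1.64%, 0.552% and 0% in B cells and 0.804%, 0.388% and 0.192% in T cells. B and T cells, given as a reference for background, had median depths of 2869 to 5522 UMIs against 8556 to 10959 in C1q macrophages. Single T cells held up to 7, 2 and 5 Arg1 UMIs in IgG, anti-CTLA-4 and depletion, and the source of these UMIs was not tested. Members held 53.6%, 44.5% and 39.6% of all Arg1 UMIs of filtered cells, and monocytes 8.70%, 9.15% and 14.1%. Cells that met the rule of no named class held 35.4%, 45.6% and 45.0%, and 7.81%, 6.78% and 7.86% of these cells had at least 2 Arg1 UMIs.

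The comparison with C1q macrophages of the same library that had 0 Arg1 UMIs describes what else went with Arg1. Arg1 separated the 2 sides, so it is a description and no test. Of 6802 genes with at least 50 UMIs over the 6 sums, 25 (0.368%) were at least 2-fold higher in Arg1-positive cells in every library and 12 (0.176%) at least 2-fold lower. The genes named here are the 15 with the largest smallest ratio and all 12 lower ones. For 10 of the 15 and 6 of the 12 the counting interval left out 1 in all 3 libraries.

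Secreted signals led the higher genes. Ccl24, which encodes the eosinophil-attracting chemokine eotaxin-2 (chromosome 5, 135569937 to 135573049), was at 572, 234 and 162 CPM in Arg1-positive cells of IgG, anti-CTLA-4 and depletion, and at 1.95, 0 and 24.1 CPM in cells without Arg1. The ratio was 6.73 in the depletion library (95% interval 4.60 to 10.1) and 293 with IgG on 1 UMI in the cells without Arg1 (52.1 to 11607). With anti-CTLA-4 the Ccl24 ratio was 45.2 against a floor of 3 counts, and its interval began at 36.5. It came from few cells: 24.4%, 21% and 16.8% of members had a Ccl24 UMI, and the single highest cell held 37.6%, 33.2% and 36.8% of them.

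Spp1, the gene of the secreted matrix protein osteopontin (chromosome 5, 104435118 to 104441050), was at 375, 140 and 857 CPM in Arg1-positive cells and at 7.82, 10.4 and 200 CPM without Arg1. Its ratio was 48.0 for IgG (18.4 to 178), 13.5 for anti-CTLA-4 (6.03 to 37.6) and 4.29 in the depletion library (3.74 to 4.93). Cells without Arg1 held only 4 Spp1 UMIs with IgG and 6 with anti-CTLA-4. A single cell held 25.4% of the Spp1 UMIs of members with IgG and 47.1% with anti-CTLA-4, against 13.7% with depletion. Fn1, which encodes fibronectin, was spread more evenly: 93.3%, 96.8% and 95.8% of members had a UMI. Fn1 stood at 1492, 944 and 1843 CPM against 633, 461 and 906, a ratio of 2.36, 2.05 and 2.03. Ecm1, another matrix gene, was at 112, 57.7 and 247 CPM against 15.6, 22.5 and 93.2.

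Vegfa, which encodes the main growth factor of blood vessels, was at 93.4, 124 and 88.3 CPM in members and at 41.0, 36.3 and 39.8 CPM in cells without Arg1. Its ratio was 2.27 (1.33 to 4.01), 3.41 (2.12 to 5.74) and 2.22 (1.58 to 3.15), so that members were above cells without Arg1 in every library while the libraries' own levels in members lay close together. Slc7a2, a carrier that brings arginine into the cell, was at 144, 70.7 and 21 CPM against 19.5, 22.5 and 7.52. Its ratio was 7.37 for IgG, 3.15 for anti-CTLA-4 and 2.79 in the depletion library. Dab2, an endocytic adaptor, was at 390, 153 and 143 CPM against 74.3, 69.1 and 58.6.

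The other named higher genes were sparser. Prtn3, a serine protease gene, was at 42.6, 82.5 and 134 CPM against 7.82, 12.1 and 61.6. Hilpda, a hypoxia-induced lipid droplet protein, was at 16.2, 33.0 and 64.7 CPM against 5.86, 5.18 and 14.3. With IgG this rested on 8 and 3 UMIs, and the interval of 0.66 to 16.2 held 1. A single cell held 28.6% of the Hilpda UMIs of members with anti-CTLA-4 and 33.8% with depletion. Without that cell the level with depletion was 43.3 CPM. Emp1, Zfp609, Brip1os, Aifm2 and Egln3, the last an oxygen-sensing prolyl hydroxylase, lay at 9.42 to 49.5 CPM in members, and Gpnmb at 48.7, 5.89 and 50.7, where 77.6% of the UMIs in the depletion library came from 1 cell. After thinning to 2000 UMIs the ratios of Gpnmb, Emp1, Aifm2 and Egln3 lay below 1 in at least 1 library.

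Hpgd, which encodes a prostaglandin-degrading enzyme, was at 6.09, 15.3 and 11.4 CPM in members and at 113, 96.7 and 29.3 CPM without Arg1. Lyz1, a lysozyme gene close in sequence to the abundant Lyz2 so that its counts are uncertain, was at 2.03, 5.89 and 1.75 CPM against 19.5, 98.5 and 12.0. A single anti-CTLA-4 cell held 78.9% of the Lyz1 UMIs without Arg1, and the level was 21.1 CPM when it was left out. Treml4, a receptor known from patrolling monocytes, was at 10.1, 20 and 10.5 CPM against 35.2, 53.5 and 22.6, with all 5 UMIs of IgG members in 1 cell. Dmkn, Glipr1 and Nhsl2 were likewise lower in members by at least 2.49-fold in each library. Atp2b4, Ckb, Skint3, Atr, Mctp1 and Gramd3 lay at 2.03 to 34.2 CPM in members and at 11.3 to 84.6 CPM without Arg1, and after thinning the ratio of Skint3 lay above 1 in at least 1 library.

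**Figure D2:**
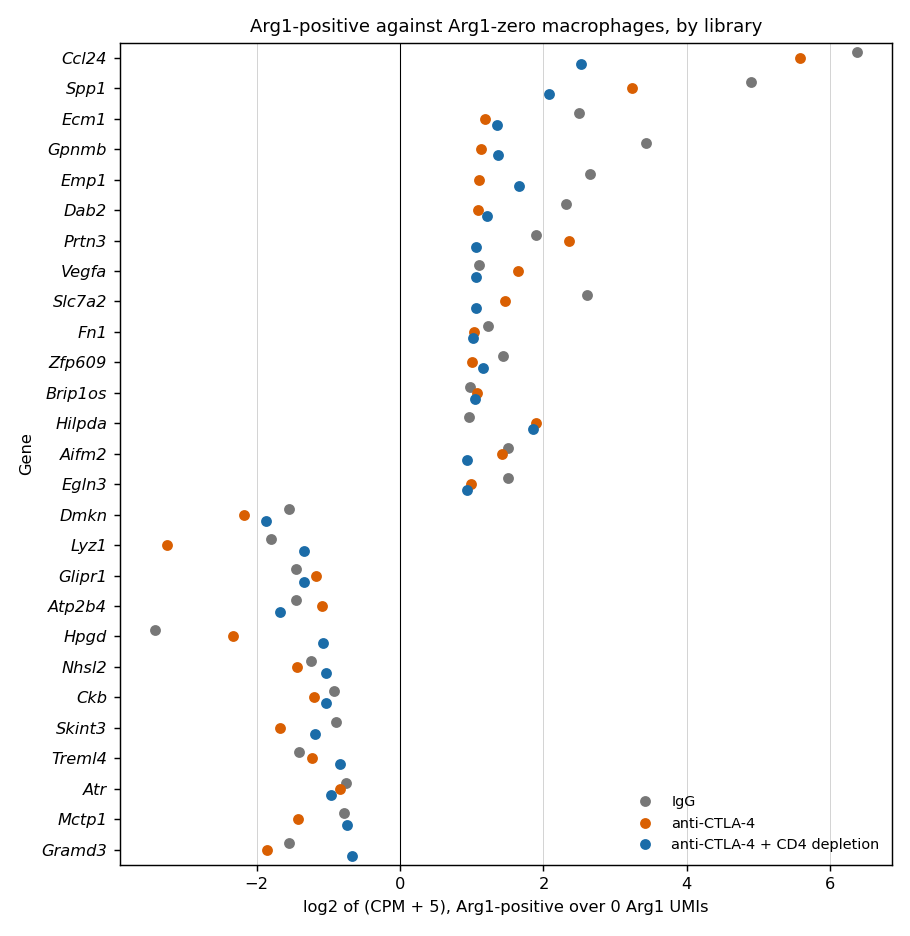
Difference on the log2(CPM + 5) scale between Arg1-positive cells and C1q macrophages with 0 Arg1 UMIs for the 27 named genes, with 1 point per library. The upper 15 genes lie right of 0 and the lower 12 left of 0 in each library, with Ccl24 and Spp1 farthest to the right.

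Read by pathway list, most glycolysis and hypoxia genes were higher in Arg1-positive cells. Of 27 measured members, 22 had a ratio above 1 in all 3 libraries and 1 below 1 in all 3, where 19.1% of all genes were above and 13.6% below. The list's median log2 ratio of CPM plus 5 was 0.53, beside 0.03 over all genes, and by library it was 0.58, 0.62 and 0.38. The glycolytic enzyme gene Gapdh was at 2235, 3128 and 2392 CPM against 1396, 1491 and 1797. Mif, a hypoxia-responsive cytokine, was at 838, 1179 and 626 CPM against 356, 406 and 445. Bnip3, a mitophagy receptor, was at 150, 224 and 84.0 CPM against 52.8, 62.2 and 52.6.

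Matrix and coagulation genes were above 1 in all 3 libraries for 10 of 17 and below for 0, with a median of 0.42. Phagocytosis, complement and Fc receptor genes were above for 14 of 24 and below for 0, with a median of 0.39. Within that list C3ar1, the receptor of complement C3a, was at 333, 165 and 171 CPM against 102, 74.3 and 87.2, and the scavenger receptor Msr1 at 183, 168 and 150 against 72.3, 100 and 106. Lipid and lysosome genes were above for 12 of 22 and below for 4, with a median of 0.32. Ctsl, a lysosomal protease, stood at 408, 220 and 523 CPM against 119, 74.3 and 330, and the apolipoprotein gene Apoe at 15272, 9117 and 13857 against 8578, 5750 and 10191. Alternative activation genes were above for 6 of 12 and below for 2, growth factor genes for 4 and 2 of 8, iron handling genes for 6 and 2 of 12 and inflammatory cytokine genes for 4 and 1 of 16. Macrophage transcription regulators were above for 8 and below for 4 of 24.

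The interferon lists lay on the other side. Immediate early genes, which tissue dissociation can raise, were above for 2 and below for 5 of 17. Of 22 interferon-gamma response genes, 1 was above and 10 were below 1 in all 3 libraries, with a median of -0.34. Of 20 type I interferon genes, 0 were above and 6 below, with a median of -0.52. Here the libraries differed: the type I median was -0.97 in the IgG library, -0.42 in the anti-CTLA-4 library and 0.13 in the depletion library. The MHC class II median was -0.19, 0.67 and -0.07 in the same order, so it was above 0 only in the anti-CTLA-4 library of these 3, a difference that was not tested.

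Levels by Arg1 UMIs per cell are given as a description, since Fn1, Spp1 and Ccl24 were named for being higher in Arg1-positive cells. In the depletion library Fn1 was at 906, 1235, 1220, 1632 and 2656 CPM in C1q macrophages with 0, 1, 2 to 4, 5 to 19 and 20 or more Arg1 UMIs (150, 23, 29, 58 and 32 cells). Over the same steps Spp1 was at 200, 179, 474, 688 and 1413 CPM, lower at 1 Arg1 UMI than at 0. With IgG and anti-CTLA-4 the cells with 1 Arg1 UMI and with 2 to 4 numbered only 4 to 9, and the middle steps there moved up and down. Between 0 and 20 or more UMIs Fn1 went from 633 to 1740 CPM with IgG (55 and 25 cells) and from 461 to 1470 with anti-CTLA-4 (58 and 29 cells). Ccl24 was highest at 20 or more UMIs in all 3 libraries, at 865, 393 and 468 CPM. Ccr2, the receptor that guides monocytes into tissue, was not among the named genes and was at 966, 912 and 883 CPM at 0 and at 1021, 1053 and 900 CPM at 20 or more.

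**Figure D3:**
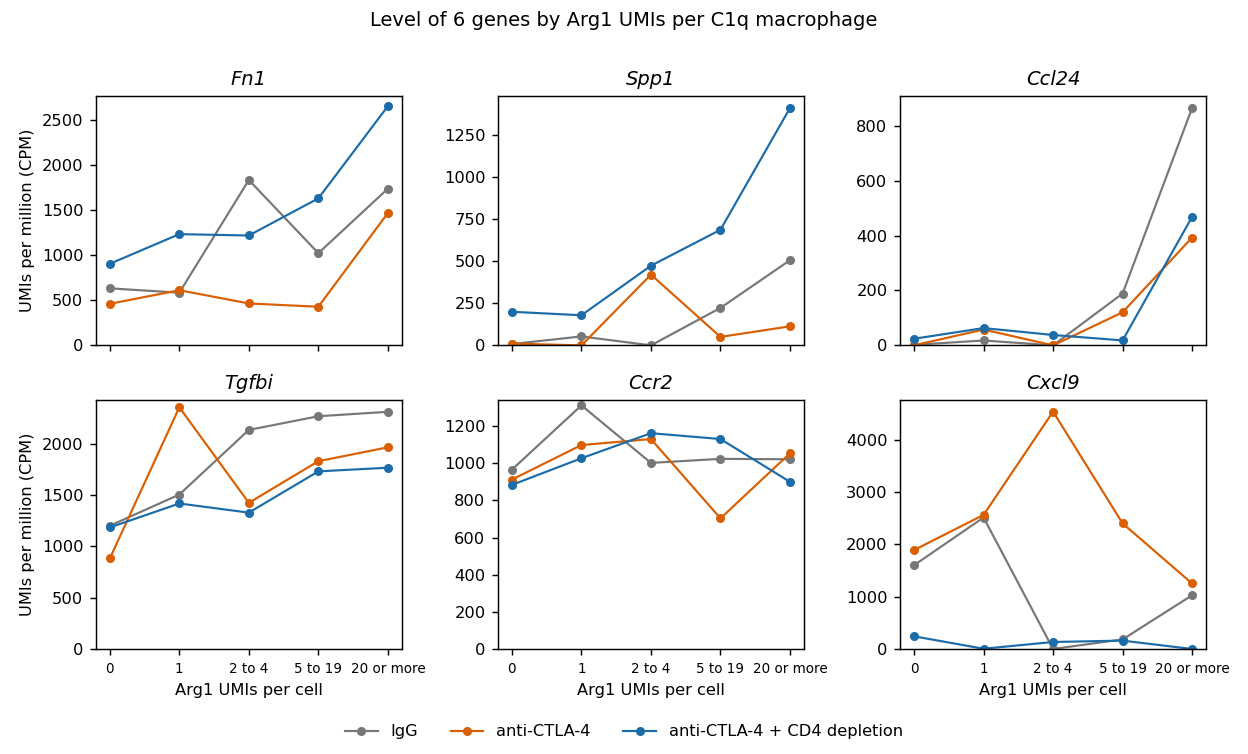
Summed level in CPM of 6 genes in C1q macrophages grouped by Arg1 UMIs per cell, with 1 line per library. Fn1 and Ccl24 are highest at 20 or more Arg1 UMIs in the depletion and anti-CTLA-4 libraries, while Ccr2 stays between 703 and 1311 CPM; the steps at 1 and at 2 to 4 hold under 10 cells with IgG and anti-CTLA-4.

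The first comparison between libraries asks how members of anti-CTLA-4 tumors differed from those of IgG tumors. Interferon-induced genes were higher with anti-CTLA-4, and the arginine carrier gene Slc7a2 and 5 of 11 alternative activation genes were lower. Of 3226 genes with at least 50 UMIs and a UMI in at least 10% of cells, 53 (1.64%) were at least 2-fold higher and 40 (1.24%) at least 2-fold lower. With median-of-ratios scaling, which moved the median of all genes from -0.05 to 0.03 on the log2 scale, the split was 80 higher and 22 lower.

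Cxcl9, which encodes a chemokine that draws activated T cells (chromosome 5, 92321347 to 92328079), was at 666 CPM for IgG, 2183 for anti-CTLA-4 and 104 in the depletion library. It was 3.28-fold higher with anti-CTLA-4 than with IgG (95% interval 2.91 to 3.70). The share of members with a Cxcl9 UMI was 31.1% for IgG, 71.0% for anti-CTLA-4 and 10.9% in the depletion library, and 20%, 56.5% and 5.04% after thinning, against 1.64%, 7.18% and 0.781% of unthinned B cells. With IgG a single cell held 46.0% of the Cxcl9 UMIs. In C1q macrophages without Arg1 the Cxcl9 ratio was 1.18 (1.08 to 1.29), from 1603 to 1893 CPM.

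The antiviral genes Ifit1, Ifit2 and Ifit3 were at 48.7, 44.7 and 56.8 CPM with IgG and at 205, 165 and 214 CPM with anti-CTLA-4. That made them 4.21-fold (2.74 to 6.75), 3.69-fold (2.35 to 6.08) and 3.77-fold (2.53 to 5.84) higher in members, beside 1.47, 1.42 and 1.03 in cells without Arg1. Isg15, a ubiquitin-like interferon product, went from 213 to 663 CPM and was 3.11-fold higher. Upp1, a uridine-splitting enzyme gene, was 5.54-fold higher (2.97 to 11.4), and Gbp4, a guanylate-binding protein gene, 2.96-fold (1.82 to 5.05). Parp10, Slco3a1 and Lap3 were 3.13-fold to 3.85-fold higher.

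Counted over the type I interferon list, 16 of 20 measured genes were at least 1.5-fold higher and 0 lower, with a median log2 ratio of 1.0. Over all 5930 genes measured, 11.7% were higher and 13.9% lower by the same rule. The interferon-gamma list had 15 of 23 higher and 0 lower, with a median of 0.70. In it Cxcl10, another ligand of the receptor of Cxcl9, was at 150 CPM with IgG and 706 with anti-CTLA-4, 4.70-fold higher, but only 3 of 45 members had a UMI in IgG, of which 1 cell held 86.5% of the UMIs, against 26 of 62 members in anti-CTLA-4, where 1 cell held 23.2%. In B cells Cxcl10 was found in 4.92% with IgG and 5.52% with anti-CTLA-4. In cells without Arg1 the medians of the same lists were 0.45 and 0.37.

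The 10 named lower genes included an endocytic adaptor, a sialic acid receptor and transcription factors. Dab2 was at 390 CPM with IgG and 153 with anti-CTLA-4, 2.54-fold lower with anti-CTLA-4 (2.03 to 3.20), and 1.08-fold lower in cells without Arg1, where the interval of 0.671 to 1.72 held 1. The transcription factor genes Klf4 and Cebpa went from 75.1 to 27.1 and from 128 to 48.3 CPM, 2.77-fold and 2.65-fold lower. Herpud1, of the endoplasmic reticulum stress response, was 3.08-fold lower, and Cd33, a sialic acid receptor gene, 2.48-fold. The remaining named genes Secisbp2l, PISD, Tnfsf12, Rab3il1 and Mthfd2 were 2.33-fold to 2.71-fold lower.

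The alternative activation list had 5 of 11 measured genes at least 1.5-fold lower and 1 higher, with a median of -0.34. In cells without Arg1 it had 4 of 10 lower and 0 higher, with a median of -0.25. Its log2 ratios in members ran from -2.75, for Mrc1, to 3.21, so the largest change in the list was upward. Mrc1, the mannose receptor CD206, was at 179 CPM for IgG, 22.4 for anti-CTLA-4 and 56.9 in the depletion library, and was found in 42.2%, 16.1% and 24.4% of members. It was 7.98-fold lower with anti-CTLA-4 than with IgG (4.82 to 13.9), while in cells without Arg1 it was at 33.2, 38.0 and 16.5 CPM. A single cell held 29.5% of the Mrc1 UMIs with IgG and 31.6% with anti-CTLA-4. The lipid and lysosome list had 10 of 22 lower and 1 higher, with a median of -0.34. Ctsl in it went from 408 to 220 CPM and Lgmn, a lysosomal protease of asparagine bonds, from 755 to 377.

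Within arginine use, Nos2 went the other way from Slc7a2 between IgG and anti-CTLA-4, on few Nos2 UMIs. Nos2 was at 8.12 CPM for IgG (4 UMIs), 55.4 for anti-CTLA-4 (47 UMIs) and 4.37 in the depletion library (5 UMIs), a ratio of 6.82 for anti-CTLA-4 over IgG (2.49 to 26.1). Nos2 was found in 8.89%, 21% and 1.68% of members. A single anti-CTLA-4 member held 27.7% of the Nos2 UMIs there, above the single-cell limit set for genes compared between libraries. Cells without Arg1 held 0, 13 and 2 Nos2 UMIs (IgG, anti-CTLA-4, depletion), so anti-CTLA-4 was highest there too. Of those 13 UMIs, 53.8% came from a single cell. Slc7a2 was at 144, 70.7 and 21 CPM. Ass1, which rebuilds arginine from citrulline, was at 158, 303 and 78.7 CPM, 1.91-fold higher with anti-CTLA-4 than with IgG (1.48 to 2.50). The arginine list as a whole had 3 of 12 higher and 4 lower, with a median of -0.20.

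Ligands and receptors that face T cells were higher in 6 of 17 and lower in 2, with a median of 0.32, among them the costimulatory gene Cd40 at 48.7 and 96.6 CPM. Glycolysis and hypoxia genes were higher in 6 of 27 and lower in 0. Immediate early genes were higher in 4 of 15 and lower in 0, with Fos at 34.5 and 86.0 CPM. Of 10 MHC class II genes 2 were higher, and of 17 class I genes 1. Inflammatory cytokine genes split into 5 higher and 4 lower of 14, matrix genes into 3 and 6 of 16, phagocytosis genes into 2 and 4 of 22 and transcription regulators into 3 and 5 of 24. Iron genes were higher in 1 and lower in 2 of 10, growth factor genes in 1 and 3 of 8, and 3 measured cell cycle genes in 0 and 0.

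**Figure D4:**
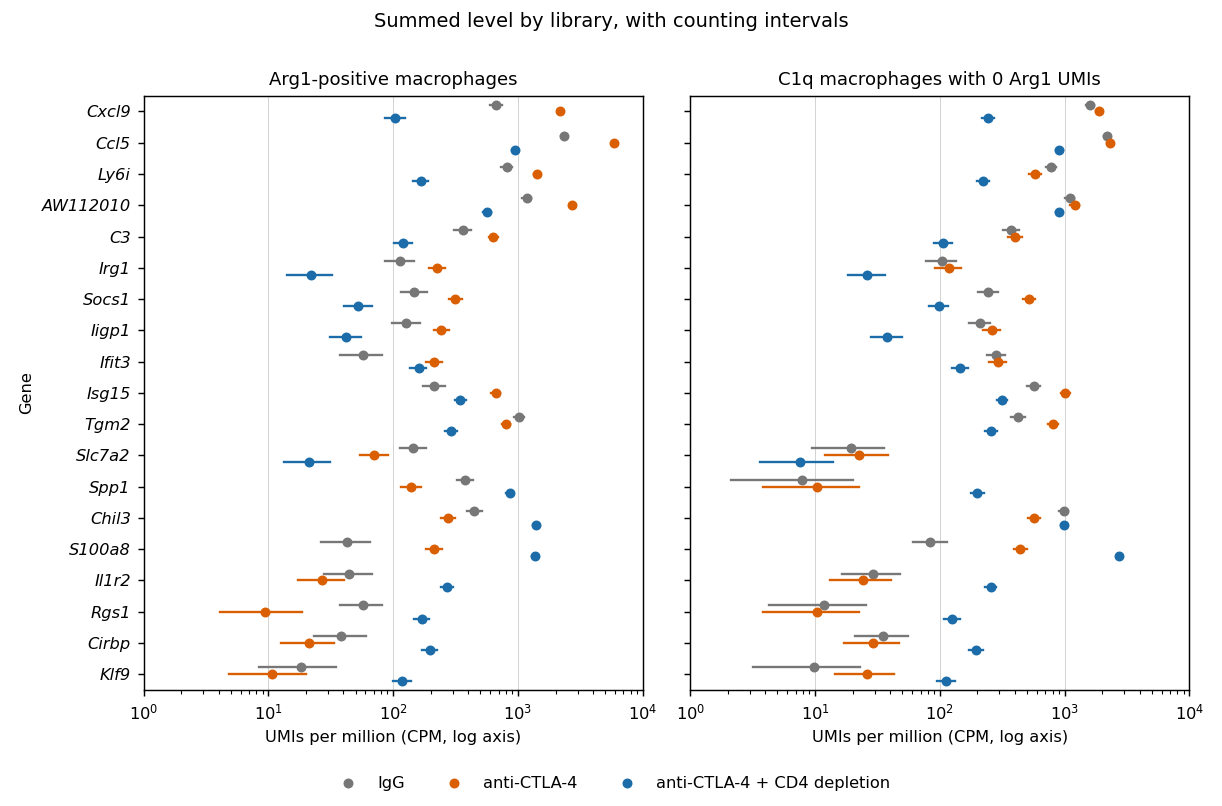
Summed level in CPM (points, log axis) with exact Poisson 95% intervals (lines) of 19 genes in Arg1-positive macrophages (left) and in C1q macrophages with 0 Arg1 UMIs (right), coloured by library. Cxcl9, Ccl5, Ly6i and AW112010 spread over the 3 libraries in members, and the 7 genes from Spp1 to Klf9 are highest with depletion in members.

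The second comparison, depletion against anti-CTLA-4, differs by design in the added CD4 antibody. The T cell-attracting chemokines, interferon-gamma response genes and antigen presentation genes were lower with depletion, and osteopontin, Ym1 and calprotectin genes higher. Of 4287 genes tested, 143 (3.34%) were at least 2-fold higher and 214 (4.99%) at least 2-fold lower. Cxcl9 was 21-fold lower (17.4 to 25.5), from 2183 to 104 CPM, and 7.80-fold lower (6.88 to 8.85) in cells without Arg1.

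Ccl5, a chemokine of T cells and monocytes (chromosome 11, 83525778 to 83530518), was at 2338 CPM for IgG, 5919 for anti-CTLA-4 and 944 in the depletion library, in 82.2%, 93.5% and 42.0% of members. Ccl5 was found in 21.3%, 18.2% and 8.59% of B cells and in 54.4%, 67.2% and 63.5% of T cells, which express it. After thinning the shares were 64.4%, 85.5% and 26.9% in members and 8.47%, 9.44% and 3.67% in B cells. It was 6.27-fold lower with depletion than with anti-CTLA-4 (5.87 to 6.70). In cells without Arg1 Ccl5 stood at 2179, 2306 and 908 CPM, so anti-CTLA-4 lay far above IgG in members and close to it in cells without Arg1. Ly6i, a membrane-anchored Ly6 family gene, was at 812, 1423 and 166 CPM and 8.56-fold lower with depletion (7.34 to 10.0), beside 2.61-fold without Arg1. AW112010, an interferon-responsive transcript, was at 1171, 2710 and 568 CPM and 4.77-fold lower, beside 1.32-fold without Arg1.

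Irg1, which encodes the enzyme that makes the antimicrobial metabolite itaconate, was at 114, 226 and 21.9 CPM in the 3 libraries. It was 10.3-fold lower with depletion than with anti-CTLA-4 (6.8 to 16.4), and 4.46-fold lower (2.93 to 6.92) without Arg1. Socs1, an inhibitor of cytokine signals, was 5.99-fold lower, the GTPase gene Iigp1 5.81-fold and the complement gene C3 5.26-fold. Cnn3 and Fam26f were 7.18-fold and 5.14-fold lower.

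All 23 measured interferon-gamma response genes were at least 1.5-fold lower with depletion, where 16.9% of 6833 genes were lower and 16.4% higher. The list's median log2 ratio was -1.66 in members and -2.07 in cells without Arg1, where 22 of 22 were lower. MHC class I genes were lower in 16 of 17, with a median of -1.11. H2-Q7, a nonclassical class I gene whose reads can be shared with its near copies, was 3.02-fold lower (2.49 to 3.66), and H2-K1 1.93-fold. The type I interferon list had 16 of 20 lower and 1 higher, with a median of -0.82. In cells without Arg1 type I genes were lower in 20 of 20, with a median of -1.36, and MHC class I genes in 15 of 17, with -0.81. Cd274, which encodes the checkpoint ligand PD-L1, was at 79.2, 174 and 54.2 CPM in members. It was 3.21-fold lower with depletion than with anti-CTLA-4 (2.37 to 4.40).

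MHC class II genes set members apart from cells without Arg1 in this comparison. In members 9 of 10 measured genes were at least 1.5-fold lower with depletion, with a median of -0.95, whereas in cells without Arg1 the count was 2 of 10 and the median -0.08. H2-Ab1, which encodes the beta chain of I-A, was at 5549, 7085 and 3573 CPM in members of IgG, anti-CTLA-4 and depletion, and at 6178, 3838 and 3738 CPM without Arg1. Cd74, the invariant chain, was at 11106, 14927 and 7779 CPM in members and at 13858, 9223 and 8542 without Arg1. In both genes the members of the anti-CTLA-4 library were the highest of the 3, and the cells without Arg1 were highest with IgG. Whether the 2 classes differ in this respect was not tested.

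Glycolysis and hypoxia genes were at least 1.5-fold lower in 16 of 27 and higher in 1, Hilpda, with a median of -0.88. A single cell held 33.8% of the Hilpda UMIs of depletion members. Bnip3 was 2.67-fold lower (2.07 to 3.44), Pgk1 2.80-fold and Pfkp 2.79-fold. In cells without Arg1 the list had 11 of 27 lower and 1 higher, with a median of -0.43. Genes facing T cells were lower in 10 of 20 and higher in 2, with Pdcd1lg2, the gene of PD-L2, at 29.5 and 3.5 CPM. Transcription regulators were lower in 9 of 24 and higher in 2.

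Spp1 was 6.11-fold higher with depletion than with anti-CTLA-4 (5.05 to 7.46), and found in 44.5% against 19.4% of members. In cells without Arg1 it was 19.3-fold higher (8.75 to 53.1), on 6 UMIs in the anti-CTLA-4 library. Chil3, the chitinase-like protein Ym1 of alternatively activated and immature myeloid cells, was at 449, 276 and 1389 CPM and 5.04-fold higher with depletion (4.39 to 5.81), in 33.3%, 40.3% and 67.2% of members. Cells without Arg1 held 503, 327 and 1306 Chil3 UMIs, of 511631, 578966 and 1330248 UMIs in all (IgG, anti-CTLA-4, depletion). As a level this was above members with IgG and anti-CTLA-4 and below them with depletion. The wider alternative activation list did not follow Chil3 in members, with 2 of 11 higher and 2 lower. Thbs1, the matrix protein thrombospondin 1, was at 394, 148 and 377 CPM and 2.54-fold higher with depletion (2.08 to 3.12). Tgm2, a protein-linking transglutaminase, was at 1023, 806 and 293 CPM and 2.75-fold lower (2.41 to 3.14). The 2 marker genes thus lay in different orders over the libraries. In cells without Arg1 Tgm2 had 217, 465 and 342 UMIs and Thbs1 87, 57 and 334. Scaled to the totals of these cells, Tgm2 with anti-CTLA-4 was close to its level in members. With depletion Tgm2 was lower and Thbs1 higher there than with anti-CTLA-4, as in members. The matrix list had 8 of 19 higher and 6 lower, with Ecm1 at 57.7 CPM for anti-CTLA-4 and 247 CPM after depletion. The lipid and lysosome list had 6 higher and 5 lower of 21, phagocytosis genes 5 and 4 of 24, inflammatory cytokines 3 and 6 of 16, arginine genes 2 and 6 of 14, growth factors 2 and 3 of 9, immediate early genes 3 and 4 of 17 and cell cycle genes 0 and 1 of 4.

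Several genes higher with depletion in members were higher in other cell classes of that library as well. Cirbp, a cold-inducible RNA-binding protein gene, was at 38.6, 21.2 and 196 CPM, 9.24-fold higher with depletion than with anti-CTLA-4 in members. The ratio was 6.63 in cells without Arg1, 3.85 in Ly6c2 monocytes and 1.73 in T cells. Klf9, a transcription factor gene that answers to glucocorticoids, was 11.1-fold higher in members, 4.35-fold without Arg1, 9.05-fold in monocytes and 1.47-fold in T cells. Rgs1, a brake on chemokine receptor signals, was 18.0-fold higher in members (8.96 to 42.3), 12.1-fold without Arg1 and 12.4-fold in monocytes, with a ratio of 0.703 in T cells. Il1r2, the decoy receptor of interleukin 1, was 10.0-fold, 10.6-fold and 5.55-fold higher in these 3 classes, with a ratio of 0.643 in T cells. Cirbp and Klf9 were thus higher in all 4 classes compared, and Rgs1 and Il1r2 in the 3 myeloid ones. A single depletion library carries all of these values, and a part of library preparation in them was not tested.

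Neutrophil genes moved with the depletion library as well. S100a8, a subunit of calprotectin, was at 42.6, 214 and 1365 CPM in members and at 84.0, 442 and 2706 CPM in cells without Arg1, 6.36-fold higher in members of depletion than of anti-CTLA-4. S100a8 was found in 13.3%, 30.6% and 50.4% of members, against 1.34%, 1.75% and 10.1% of T cells. A single cell held 46.7% of the S100a8 UMIs with anti-CTLA-4. S100a8 is itself one of the 10 neutrophil markers. Without members that had 5 or more UMIs of these markers (9, 8 and 29 cells, chosen after the data were seen), the log2 ratios of Spp1, Chil3 and Rgs1, which are not on that list, were 2.50, 2.31 and 3.88. Cxcl14, Mmd and Ltc4s, the last a leukotriene synthase gene, were 6.19-fold to 8.71-fold higher with depletion.

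The metal-binding gene Mt1 was at 164, 119 and 603 CPM and 5.07-fold higher with depletion (4.11 to 6.31), with 28.3% of its UMIs in 1 cell. Its neighbour Mt2 was at 6.09, 2.36 and 42.9 CPM, with 73.5% of its UMIs in 1 cell. The iron and heme list that holds both had 5 of 12 higher and 1 lower.

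**Figure D5:**
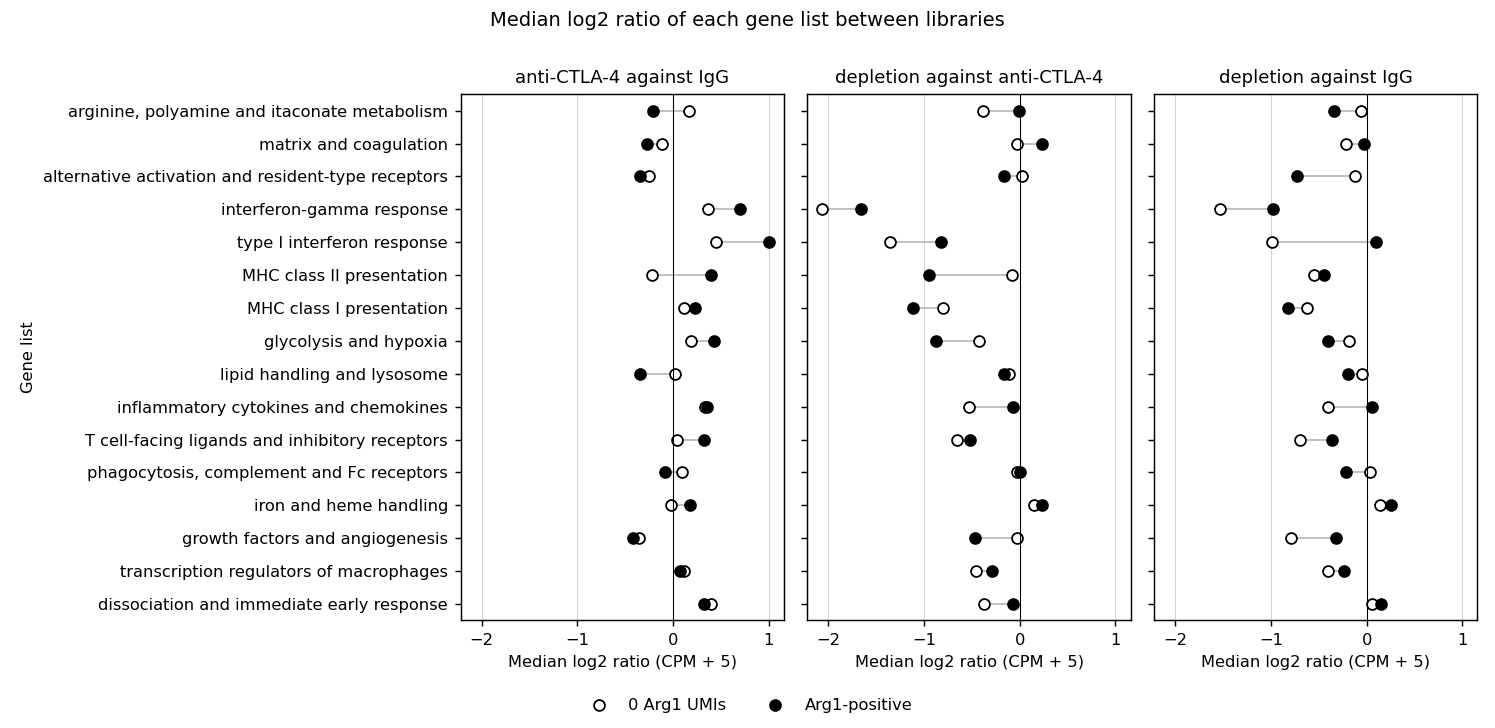
Median log2 ratio of CPM plus 5 for 16 gene lists in the 3 comparisons between libraries, in Arg1-positive macrophages (filled) and C1q macrophages with 0 Arg1 UMIs (open); the cell cycle list, with 3 or 4 measured genes in members, is left out. The interferon-gamma list lies at -1.66 and -2.07 for depletion against anti-CTLA-4, and the type I interferon list at 0.09 and -0.99 for depletion against IgG.

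The last comparison sets depletion beside IgG and shares its libraries with the other 2, so their agreement is given as no result. Of 3705 genes, 132 (3.56%) were at least 2-fold higher and 124 (3.35%) at least 2-fold lower. The marker gene Tgm2 was 3.49-fold lower with depletion (3.03 to 4.02), and 1.65-fold lower without Arg1. Slc7a2 was 6.86-fold lower (4.27 to 11.4), and 2.60-fold lower without Arg1, where the interval of 0.971 to 6.96 held 1. Gatm, which makes the creatine precursor from arginine, was at 911 CPM with IgG and 221 with depletion, 4.12-fold lower (3.52 to 4.82), and 1.96-fold lower without Arg1. Flt1, a receptor of the Vegfa protein, was 3.05-fold lower.

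Most interferon-gamma response and MHC class I genes were lower with depletion than with IgG. Irg1 was 5.20-fold lower, Ly6i 4.88-fold, Iigp1 3.05-fold and C3 2.99-fold, and the class I genes H2-Q4 and H2-Q6 were 3.11-fold and 3.03-fold lower. The interferon-gamma list had 16 of 22 genes at least 1.5-fold lower and 1 higher, where 18.5% of 6470 genes were lower and 14.5% higher. The single higher gene was Cxcl10, at 150 CPM with IgG and 353 with depletion, 2.35-fold higher (1.83 to 3.06). In cells without Arg1 Cxcl10 went from 917 to 304 CPM, 3.01-fold lower (2.63 to 3.45). In members its UMIs came from 3 of 45 cells with IgG, where 1 cell held 86.5%, and from 22 of 119 with depletion, where 1 cell held 24.5%.

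The type I interferon genes did not follow the interferon-gamma list in members. With depletion 8 of 19 were at least 1.5-fold higher than with IgG and 2 lower, with a median of 0.09, whereas in cells without Arg1 0 were higher and 18 of 20 lower, with a median of -0.99. Ifit3 was at 56.8 CPM with IgG and 160 with depletion in members, and at 283 and 145 CPM without Arg1. Ifit2 was at 44.7 and 101 CPM in members and at 248 and 68.4 CPM without Arg1. Over the 3 libraries both genes were lowest with IgG in members and lowest with depletion in cells without Arg1. The difference between the classes was not tested. Of the other lists, alternative activation had 5 of 10 lower and 1 higher, MHC class I 11 of 17 lower, class II 2 of 10 lower, glycolysis and hypoxia 9 of 27 lower and 1 higher, lipid and lysosome 7 of 21 lower and 1 higher, and arginine genes 6 of 14 lower. Matrix genes split into 5 higher and 6 lower of 16 and cytokines into 5 and 6 of 15.

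Among genes higher with depletion than with IgG, S100a8 was 32.0-fold higher (20.9 to 51.9), on 21 UMIs in members of the IgG library. Lcn2, an iron-sequestering protein gene of neutrophils, had 0 UMIs with IgG and 49.0 CPM with depletion. It was 8.05-fold higher against a floor of 3 counts, and its interval began at 6.33. Mmp9, a matrix protease gene, was 5.22-fold higher (2.65 to 11.7) and Trem1, an amplifier of inflammatory signals, 4.96-fold (2.41 to 11.8). Without members holding 5 or more neutrophil marker UMIs the log2 ratios of Lcn2 and Mmp9 were 1.18 and 1.07, beside 3.43 and 2.11 with them, in a set of cells picked by neutrophil transcripts. Neutrophil markers stood at 353 and 2583 CPM in the members of IgG and depletion, and their part in the result was not tested. Il1r2, Klf9, Cirbp, Klhl6, Mvb12b and Cxcl14 were 5.08-fold to 18.5-fold higher.

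Some genes were uneven among the members of every library. After thinning to 2000 UMIs, 18 genes ranked among the 40 highest variance-to-mean ratios in all 3 libraries. The ratio ranks abundant genes high, and Malat1, Actb and Tmsb4x were among the 18. The others included Apoe, the ferritin gene Fth1, Ccl5, Cxcl9, Ccl24, Tgm2, the monocyte genes Ly6c2 and Plac8, and the class II genes H2-Ab1, H2-Aa, H2-Eb1 and Cd74. Apoe had a median of 16, 15 and 24 UMIs per thinned cell and a maximum of 123, 79 and 154. Ccl5 had a median of 1, 10 and 0 UMIs, with maxima of 32, 52 and 44, so single cells with high Ccl5 were found with depletion too. Ly6c2 was found in 53.3%, 59.7% and 41.2% of thinned members, against 13.6%, 15% and 4.59% of thinned B cells.

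Pairs of genes were also counted in the same cells. Cxcl9 and Spp1 were found together in 5 members of IgG, 8 of anti-CTLA-4 and 5 of depletion, where independence of their shares would give 4.7, 8.5 and 5.8. After thinning, which takes out the part of depth in joint detection, the counts were 0, 4 and 1, where independence would give 1.6, 4.5 and 1.8. Cxcl9 and Mrc1 were found together in 3, 8 and 2 members, where independence would give 5.9, 7.1 and 3.2, and in 2, 1 and 0 thinned members. Nos2 and Cxcl9 shared 10 of 62 members with anti-CTLA-4, where independence would give 9.2, and 3 thinned members, where it would give 4.0. The calprotectin genes S100a8 and S100a9 shared 17 of 119 thinned members with depletion, where independence would give 5.6. Counts this small do not tell whether the genes of the first 3 pairs go together or apart.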

How the data were processed

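Immune-cell libraries of 3 glioma-005 groups and of healthy brain were used, 1 per group. The authors deposited raw UMI counts for 27998 genes in each barcode. They used Cell Ranger with mm10, per the submitters' processing notes, and the file headers give version 3.1.0. Members, gene lists and comparisons were chosen with earlier results of these data known.

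Within each library and class, UMIs were pooled over cells and scaled to CPM. Library ratios have exact conditional-binomial 95% intervals, levels exact Poisson ones and shares exact Clopper-Pearson ones. These intervals are too narrow for differences between cells, since 1 cell can hold many UMIs of a gene. Pooled members held 492716, 848854 and 1143214 UMIs (IgG, anti-CTLA-4, depletion). Where 1 side had 0 UMIs, 3 counts were used there, and the interval of such a ratio can begin lower.

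Genes compared between libraries needed 50 UMIs over the pair, detection in 10% of cells on the higher side, and at most 20% of that side's UMIs in any 1 cell. They counted from a ratio of 2. In each direction the 10 with the greatest log2 ratio (5 added to CPM) are named, or 15 for Arg1-positive against Arg1-zero cells. Excluded from naming were the rule's genes, ribosomal, mitochondrial, hemoglobin, antigen receptor, unnamed and sex-linked genes. Further genes come from the 17 pathway lists or from 12 markers, and those list genes that were not the most extreme of their list were picked after their values were seen. A list gene needed 20 UMIs and counted from a ratio of 1.5. Gates on raw UMIs gave the other classes: microglia (5 or more of the microglia genes), monocytes (2 or more of Ly6c2, 0 of C1q), B cells (3 or more of Cd79a and Cd79b) and T cells (2 or more of the Cd3 genes).

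Other settings were 500 genes per cell, removal of the top 5% by Scrublet score (doublets were otherwise kept), removal of cells with 3 or more UMIs of other lineages, 5 Arg1 UMIs, size factors by median of ratios, totals free of ribosomal and mitochondrial genes, averaging CPM over cells, thinning to 2000 UMIs, a 1.5 threshold, a 20-UMI minimum without a detection share, and omission of single libraries. Scripts were tested on simulated data. Software was Python 3.11.15, numpy 2.4.6, scipy 1.17.1, pandas 2.3.3 and scanpy 1.11.5. Coordinates follow GENCODE vM21. A member of the matrix list is not reported here by name.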

Additional observations from a re-analysis of the deposited data

Results flagged for a closer look

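For 5 genes the ratio of Arg1-positive over Arg1-zero macrophages lay on opposite sides of 1 in 2 libraries, with counting intervals that left out 1 in both. Klf4, a transcription factor gene, stood at 2.02 in the IgG library (1.13 to 3.72) and at 0.224 in the anti-CTLA-4 library (0.133 to 0.363). For Secisbp2l the IgG library gave 2.57 and the anti-CTLA-4 library 0.498, and for the mitochondrial folate enzyme gene Mthfd2 they gave 2.0 and 0.505. AW112010 was 2.26 with anti-CTLA-4 (2.07 to 2.46) and 0.626 with depletion (0.568 to 0.689). Lcn2 was 8.18 with anti-CTLA-4 (1.21 to 350), on 12 UMIs of which 58.3% came from 1 cell, and 0.303 with depletion. With 1 library per group these differences between libraries were not tested. They were read among the named genes only.

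In healthy brain, which served as the control and held no member, 1 cell outside the rule had 15 Arg1 UMIs. It had 13678 UMIs in all, 9 of Cd3e, 2 of Il1rl1 and 0 of Csf1r.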

How the results depend on the processing

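No paired analysis was possible because each group holds 1 library. Of 510 list medians recomputed over these settings 507 stayed within 1.5-fold of the main value, as did 824 of 870 gene values, and the exceptions came mostly from thinning. A change of direction was looked for only where the main value was at least 1.5-fold from no change. The 1.5 threshold and the 20-UMI minimum change only the counts of genes, so medians and gene values could not move under them. The minimum of 500 genes removed no member. Thinning to 2000 UMIs leaves fewer genes past the UMI minimum and gave 22 higher and 4 lower genes for anti-CTLA-4 against IgG, 39 and 56 for depletion against anti-CTLA-4, 31 and 16 for depletion against IgG, and 9 and 6 for Arg1-positive against Arg1-zero cells, with shares of 29.6% (anti-CTLA-4) and 27.0% (depletion). In thinned cells the log2 ratio nearest to 0 turned for Gpnmb (-0.013), Emp1 (-0.092), Aifm2 (-0.092), Egln3 (-0.13) and Skint3 (0.70). A ratio of 1.5 gave, in the same order, 275 and 240, 571 and 605, 458 and 480, and 87 and 44 genes. At least 20 UMIs with no minimum share gave 202 and 195, 381 and 385, 362 and 318, and 49 and 33. Median-of-ratios scaling gave 80 and 22 for anti-CTLA-4 against IgG. Leaving out cells with other-lineage UMIs gave 26 lower genes there and 79 for depletion against IgG. Leaving out members with neutrophil UMIs, an alternative chosen after seeing the data, gave 69. With at least 5 Arg1 UMIs the share with depletion was 30.8%. Leaving out 1 library in turn gave 27 to 50 higher and 10 to 57 lower genes in Arg1-positive against Arg1-zero cells, the highest of both without the depletion library. Causes were not tested where none is given. Depth limits genes under about 50 UMIs.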
